A study of Mus musculus with 6 samples.

Results

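The GABA-A receptor subunits described here are Gabra2, Gabra3, Gabra4, Gabra5, Gabrb1, Gabrb2 and Gabrg1, which is 7 of the 37074 gene names on the array. Their probes were taken by name, as every probe whose gene name in the scanner files equals 1 of these symbols. This gave 21 of the 56605 probes, and each of them is accounted for below. GABA-A receptors are chloride channels opened by GABA, the main inhibitory transmitter of the adult brain, and each channel is a ring of subunits drawn from the alpha, beta, gamma, delta and rarer families. GABA binds between alpha and beta subunits, benzodiazepines bind between alpha and gamma subunits, and the kind of alpha subunit sets much of the pharmacology and the place of the channel on the neuron. In the hypothalamus such channels carry the inhibition that GABA-releasing neurons, those of the arcuate nucleus among them, exert on their targets.

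RNA from tissue labelled hypothalamus, of male C57BL/6J DIO mice in which obesity was induced by feeding fat, was measured on 6 Agilent one-colour arrays. Each array held 1 sample. The 3 arrays labelled GSK-J4 come from mice given 30 mg/kg of this inhibitor of the H3K27 demethylases by intraperitoneal injection, and the 3 labelled vehicle from mice given 0 mg/kg. The animals of both groups received a diet with 60 kcal% fat for 16 weeks from an age of 6 weeks and tissue was taken at ZT 6 h. The description of the arrays puts the tissue at day 4 after exposure and states that experiments used different mice, while the methods of the study describe a course of 21 d of daily injections.

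All 3 vehicle arrays lie on slide 1 and scan 1 and all 3 GSK-J4 arrays on slide 2 and scan 2, so treatment cannot be told apart from slide or scan in the differences given here. The GSK-J4 arrays were also dimmer before normalization. The 75th percentile of their raw signal was 461, 453 and 406 on GSK-J4 1, 2 and 3, compared with 802, 916 and 787 on vehicle 1, 2 and 3. The number of probes well above background was 33209, 32661 and 33178 on the GSK-J4 arrays and 35988, 35884 and 35534 on the vehicle arrays. Vehicle 1 also stands apart from the other arrays in markers of the choroid plexus. GSK-J4 3 correlated at 0.978 with GSK-J4 1 and 0.98 with GSK-J4 2, below the 0.987 between GSK-J4 2 and vehicle 2. Precision is limited by the 3 arrays in each group, for which the smallest two-sided p of an exact permutation test is 0.1.

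No probe of the 7 genes was called different between GSK-J4 and vehicle after correction over all probes. Of the 21 probes, 16 passed the scanner's test of being well above background, on each of the 6 arrays, and were compared, and 5 were on no array well above background. With limma and an adjusted p no higher than 0.05, the count of subunit probes called was 0 for higher and 0 for lower in GSK-J4, compared with 8.38% and 8.40% of the 34443 probes tested. These shares depend on the arrays included and on the scaling. Over all tested probes limma called 2888 higher and 2893 lower, but 2 and 9 without vehicle 1, 5 and 23 without vehicle 2, and 2 and 17 without vehicle 3. The counts were 979 and 1414 without GSK-J4 1, 2122 and 2067 without GSK-J4 2, and 1542 and 2443 without GSK-J4 3. With 75th percentile scaling they were 5036 and 3635. The methods' t-test, after correction, left 34 higher and 25 lower. A fold change of at least 1.5 with an unadjusted p of at most 0.05, the thresholds of the methods with limma in place of the t-test, was met by 1 probe that was higher, of Gabra3, and by 0 that were lower. Over all tested probes these shares were 4.80% and 7.85%. An unadjusted p of at most 0.05 was given to 2 of the 16 probes, 1 higher (Gabra3) and 1 lower (Gabra5), beside 36.5% of all tested probes. With the methods' t-test without equal variances, 0 of the 16 reached an unadjusted p of 0.05 and 0 passed its correction. The arrays of the groups did not overlap for 2 of the 16 probes, 1 of Gabra3 and 1 of Gabrb2, beside 45.6% of all tested probes.

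The differences of the subunit probes were small in the middle and wide in error. Their median log2 fold change, GSK-J4 minus vehicle, was -0.04 with a range from -0.43 to 0.60, while the median over all tested probes was 0.02. With 75th percentile scaling both medians were 0.05. The median absolute log2 fold change was 0.13 for the subunits and 0.25 for all tested probes. The standard errors went the other way, with a median of 0.22 for the subunits and 0.13 for all tested probes. The 95% interval of the log2 fold change included 0 for 14 of the 16 probes. It excluded a 1.5-fold change in either direction for 7 probes and a 2-fold change in either direction for 12. For the other 4 probes a 2-fold change remained inside the interval, so that their results are undecided at this number of arrays. The RNA comes from bulk tissue, in which fewer cells of a type and less RNA per cell cannot be told apart.

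**Figure D1:**
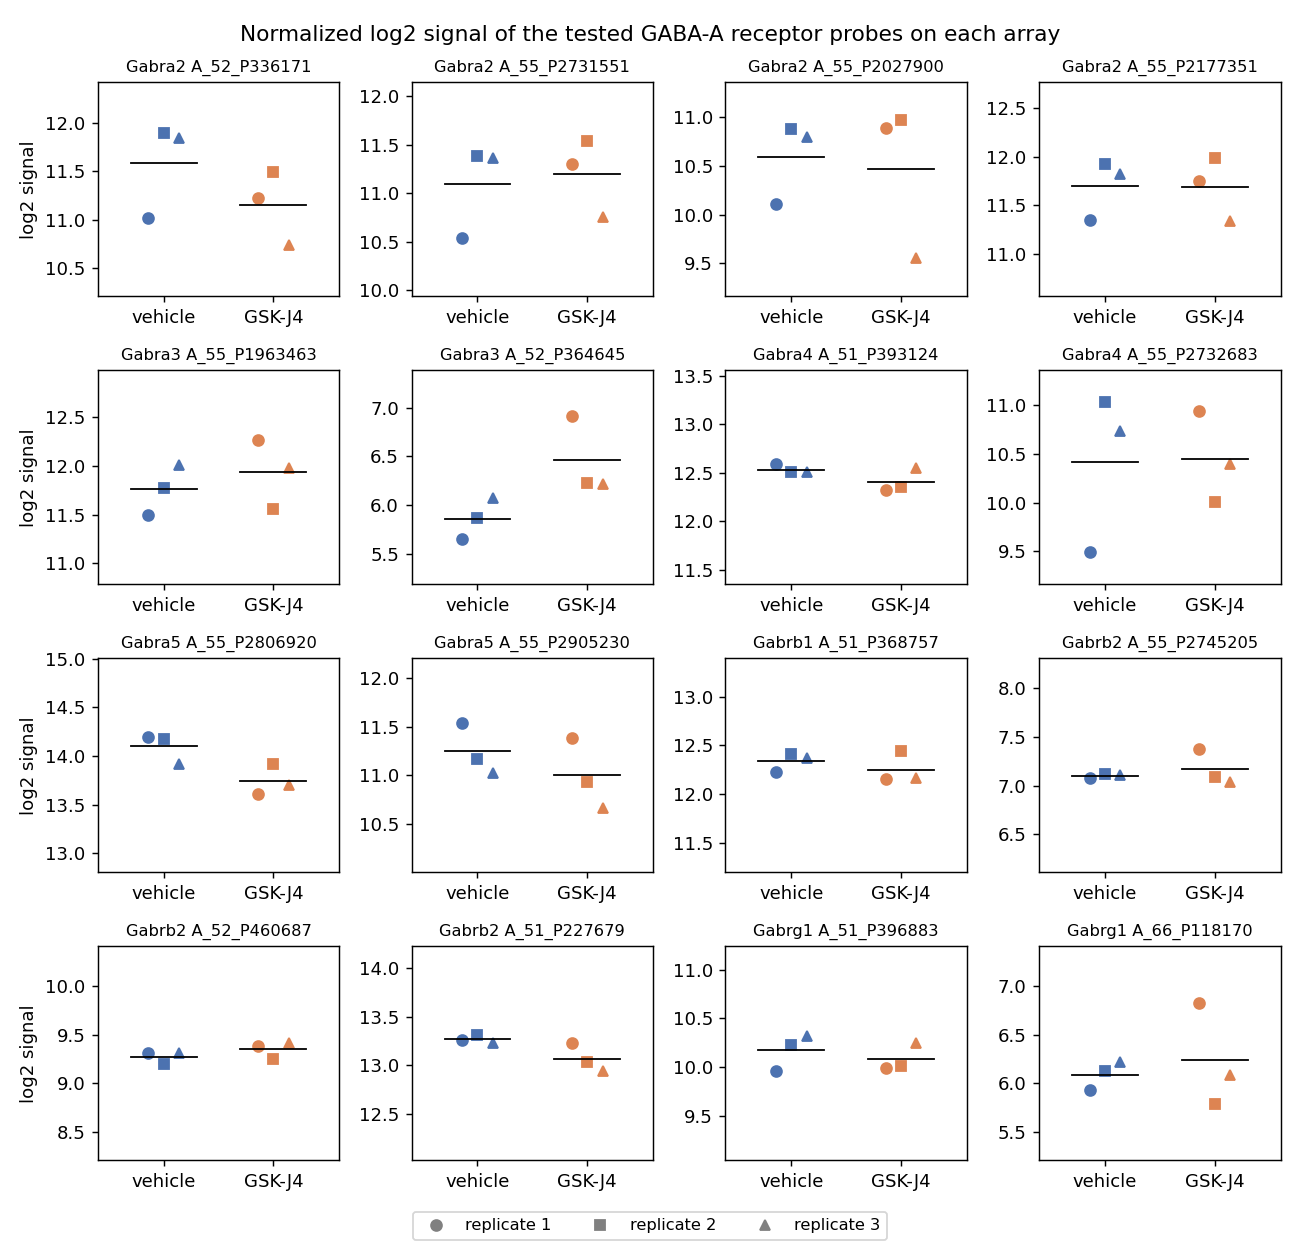
Normalized log2 signal (vertical axes, each spanning 2.2 units) of the 16 tested probes on the 3 vehicle and 3 GSK-J4 arrays, with a symbol for each replicate number and a line at each group mean. The groups overlap in 14 panels, all but Gabra3 A_52_P364645 and Gabrb2 A_51_P227679.

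Among the alpha subunits, Gabra3 had the largest difference. The α3 subunit is found in many brainstem, hypothalamic and other monoaminergic or cholinergic cell groups, and its gene lies on chromosome X. Probe A_52_P364645, from 69746547 to 69746606 on the minus strand of chromosome X (mm9) with 38.3% GC, is shown because it alone passed the thresholds of the methods.
Gabra3 A_52_P364645: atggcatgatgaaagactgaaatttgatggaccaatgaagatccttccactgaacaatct
Its normalized log2 signal was 5.65, 5.87 and 6.07 on vehicle 1, 2 and 3 and 6.92, 6.23 and 6.22 on GSK-J4 1, 2 and 3. Every GSK-J4 array was above every vehicle array, but GSK-J4 1 stood well above the others and the gap between the groups was small (two-sided p = 0.1 by exact permutation, which is the lowest it can be). The difference was 1.52-fold, which on the log2 scale is 0.60 (standard error 0.23, 95% interval from 0.05 to 1.16, limma unadjusted p = 0.0382, adjusted p = 0.115). Without GSK-J4 1 the log2 fold change was 0.37 and without vehicle 1 it was 0.49. With 75th percentile scaling it was 0.48 and with normexp background correction 0.33, and all 4 values are under 1.5-fold. Without vehicle 2 it was 0.60 but the p was over the threshold (limma unadjusted p = 0.0844, adjusted p = 0.235). Without vehicle 3 it was 0.70, and it was 0.72 without GSK-J4 2 and without GSK-J4 3. These values passed the thresholds of the methods but not the correction (limma adjusted p = 0.167, 0.122 and 0.112). With the trend on GC content removed it was 0.66 (limma adjusted p = 0.113).

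The Gabra3 probe A_55_P1963463, 68516 bases from A_52_P364645 on the chromosome, gave a smaller value. Its signal was 11.50, 11.77 and 12.01 on the vehicle arrays and 12.27, 11.56 and 11.98 on the GSK-J4 arrays. The groups overlapped, with a log2 fold change of 0.18 (95% interval from -0.36 to 0.72, limma adjusted p = 0.59). With 75th percentile scaling the log2 fold change was 0.32 and it was 0.33 with the trend on GC content removed. It was 0.01 without GSK-J4 1 and 0.36 without GSK-J4 2. GSK-J4 1 was the highest array for each of these Gabra3 probes and vehicle 1 the lowest. The remaining probe, A_52_P907953 with 20% GC, was on no array well above background and gives no fold.

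The Gabra2 probes varied together within the groups. The α2 subunit is enriched at inhibitory synapses, including those on the axon initial segment. Its 4 probes lie within 2344 bases of chromosome 5, and A_55_P2027900 and A_55_P2177351 share 29 bases, so they are not independent readings of the gene. On A_52_P336171 the log2 signal was 11.02, 11.89 and 11.84 on vehicle 1, 2 and 3 and 11.22, 11.49 and 10.74 on GSK-J4 1, 2 and 3. On A_55_P2731551 it was 10.54, 11.38 and 11.36 on the vehicle arrays and 11.30, 11.54 and 10.75 on the GSK-J4 arrays. Within each group the order of the arrays was the same for these probes, which are 886 bases apart. The overlapping probes gave 10.11, 10.88 and 10.80 against 10.89, 10.97 and 9.55 for A_55_P2027900, and 11.35, 11.92 and 11.82 against 11.75, 11.99 and 11.34 for A_55_P2177351. All 4 probes shared this order, with vehicle 1 the lowest vehicle array and GSK-J4 3 the lowest GSK-J4 array.

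The groups overlapped for all 4 Gabra2 probes. The log2 fold change was -0.43 on A_52_P336171 (standard error 0.30, 95% interval from -1.18 to 0.31, limma adjusted p = 0.341) and 0.10 on A_55_P2731551 (95% interval from -0.65 to 0.86). It was -0.12 on A_55_P2027900 (95% interval from -1.20 to 0.95) and 0.00 on A_55_P2177351 (95% interval from -0.55 to 0.55). Vehicle 1 lay below the mean of vehicle 2 and 3 by between -0.84 and -0.52 on the log2 scale, depending on the probe, which for each probe is farther from 0 than its difference between the groups. Without vehicle 1 the log2 fold changes were -0.72, -0.17, -0.37 and -0.18 in the order just given, and A_52_P336171 then passed the thresholds of the methods with an unadjusted p of 0.0308 but not the correction (limma adjusted p = 0.132). Without GSK-J4 3 they were -0.23, 0.33, 0.34 and 0.18. The sign thus depends on which of these arrays is included for 3 of the 4 probes, while A_52_P336171 was below 0 in all 15 alternatives that gave it a value, from -0.72 to -0.23.

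**Figure D2:**
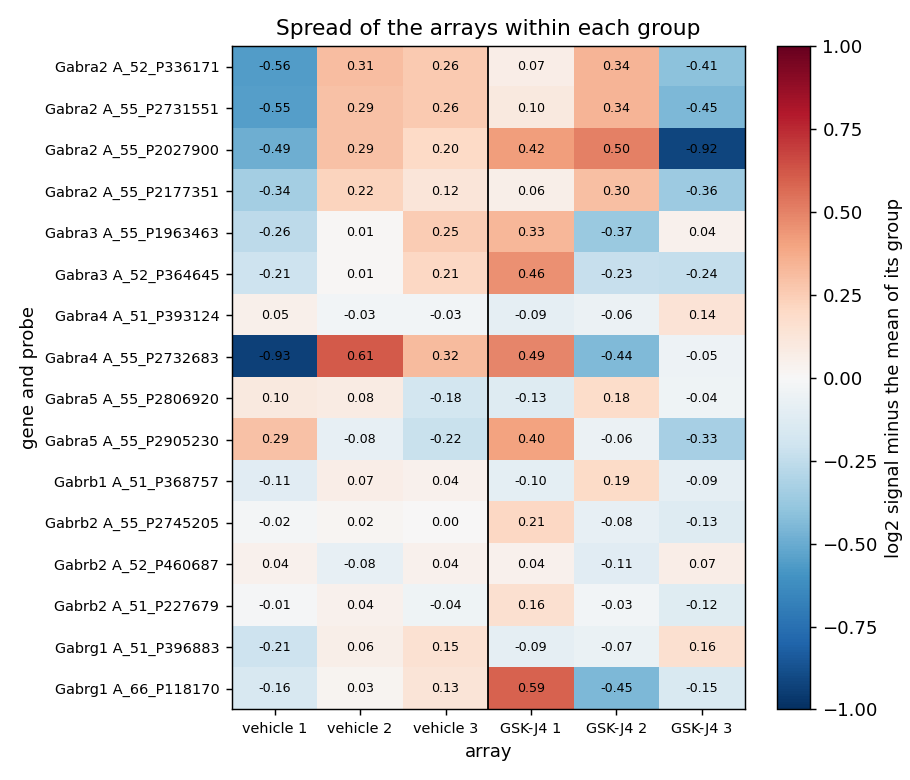
Log2 signal of each tested probe (vertical axis) on each array (horizontal axis) minus the mean of that array's group, with the value written in each cell. The 4 Gabra2 probes share a pattern, low on vehicle 1 (-0.56 to -0.34) and on GSK-J4 3 (-0.92 to -0.36), whereas those of Gabrb1 and Gabrb2 stay within 0.21 of 0.

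Gabra4 encodes the α4 subunit, which in forebrain often joins with delta subunits in channels outside the synapse. Its probe A_51_P393124 was tight, with 12.59, 12.51 and 12.51 on the vehicle arrays and 12.32, 12.35 and 12.55 on the GSK-J4 arrays. Only GSK-J4 3 reached into the vehicle range, and the log2 fold change was -0.13 (95% interval from -0.35 to 0.09, limma adjusted p = 0.351), or 0.06 with 75th percentile scaling and from -0.20 to -0.08 with 1 array left out. The other probe, A_55_P2732683, lies 83931 bases away and behaved differently. It gave 9.49, 11.03 and 10.74 on the vehicle arrays and 10.94, 10.01 and 10.40 on the GSK-J4 arrays, so that vehicle 1 was the lowest of all 6, with a difference of -1.39 from the mean of vehicle 2 and 3. Its log2 fold change of 0.03 has a 95% interval from -1.09 to 1.15 and was -0.43 without vehicle 1.

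Gabra5 encodes the α5 subunit, known from extrasynaptic receptors that carry tonic inhibition. It had the only subunit probe that was lower with an unadjusted p of at most 0.05. On A_55_P2806920 (chromosome 7, 35% GC) the signal was 14.20, 14.18 and 13.92 on the vehicle arrays and 13.61, 13.92 and 13.70 on the GSK-J4 arrays. Vehicle 3 and GSK-J4 2 met at the same value to 2 decimals, so the groups touched (exact permutation test, two-sided p = 0.2). The log2 fold change was -0.36 (standard error 0.12, 95% interval from -0.67 to -0.05, limma unadjusted p = 0.0284, adjusted p = 0.0971). It was -0.07 with 75th percentile scaling and -0.21 with the trend on GC content removed, so its size depends on the normalization.

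The other Gabra5 probe, A_55_P2905230 with 45% GC, is shown because it reads a stretch of the same gene 5906 bases away with a different base composition. The files give coordinates for 46 of its 60 bases, from 64668976 to 64669021 on the minus strand of chromosome 7 (mm9).
Gabra5 A_55_P2905230: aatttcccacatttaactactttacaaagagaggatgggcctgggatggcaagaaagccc
Its signal was 11.54, 11.17 and 11.03 on the vehicle arrays and 11.39, 10.93 and 10.67 on the GSK-J4 arrays. The groups overlapped and the log2 fold change was -0.25 (95% interval from -0.80 to 0.30, limma adjusted p = 0.453), or -0.30 with the trend on GC content removed. Without GSK-J4 1 the log2 fold change was -0.45 and without GSK-J4 3 it was -0.08. The estimate was below 0 in all 16 alternatives for A_55_P2806920 and in all 15 that gave a value for A_55_P2905230, but past the correction in none.

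Of the beta subunits, which hold the other face of the GABA site, Gabrb1 has 1 probe on the array and Gabrb2 has 4. The Gabrb1 probe A_51_P368757 (chromosome 5, 45% GC) gave 12.23, 12.41 and 12.37 on the vehicle arrays and 12.15, 12.44 and 12.16 on the GSK-J4 arrays. GSK-J4 1 and 3 were below every vehicle array and GSK-J4 2 above, and the log2 fold change was -0.08 (standard error 0.11, 95% interval from -0.35 to 0.19, limma adjusted p = 0.608), or 0.09 with 75th percentile scaling and from -0.18 to -0.04 with 1 array left out. A change of 1.5-fold lies outside this interval.

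Gabrb2 encodes the β2 subunit, which is part of the most widespread receptor type of the adult brain. Probe A_51_P227679 had 13.26, 13.31 and 13.23 on the vehicle arrays and 13.23, 13.04 and 12.94 on the GSK-J4 arrays. The GSK-J4 arrays lay below the vehicle arrays, although GSK-J4 1 and vehicle 3 have the same value to 2 decimals (exact permutation test, two-sided p = 0.1). The log2 fold change was -0.20 (standard error 0.09, 95% interval from -0.43 to 0.03, limma adjusted p = 0.186). With normexp background correction it was -0.25 and passed the correction (limma adjusted p = 0.0479, within a range from 0.0479 to 0.81 over the alternatives), and with 75th percentile scaling it was 0.04.

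The other tested Gabrb2 probes were flat. Probe A_52_P460687 gave 9.31, 9.20 and 9.31 on the vehicle arrays and 9.39, 9.25 and 9.42 on the GSK-J4 arrays, a log2 fold change of 0.08 (95% interval from -0.12 to 0.28), or from 0.04 to 0.13 with 1 array left out. Probe A_55_P2745205, from 42440313 to 42440372 on the plus strand of chromosome 11 (mm9), is shown as the steadiest reading on the vehicle arrays.
Gabrb2 A_55_P2745205: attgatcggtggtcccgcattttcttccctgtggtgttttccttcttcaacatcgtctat
It gave 7.08, 7.12 and 7.11 on the vehicle arrays and 7.38, 7.09 and 7.04 on the GSK-J4 arrays. GSK-J4 1 alone was high and the log2 fold change was 0.06 (95% interval from -0.20 to 0.33), or -0.07 with 75th percentile scaling. The probe A_52_P260709, 95593 bases away, was on no array well above background.

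Gabrg1 encodes the γ1 subunit, a minor gamma subunit of the brain as a whole that is prominent in the hypothalamus and amygdala. Of its 5 probes on chromosome 5, 2 were tested, and A_55_P2805131, A_55_P2935011 and A_55_P2935012 were on no array well above background. Probe A_51_P396883 gave 9.96, 10.23 and 10.32 on the vehicle arrays and 9.99, 10.01 and 10.25 on the GSK-J4 arrays. The groups overlapped and the log2 fold change was -0.09 (95% interval from -0.40 to 0.23, limma adjusted p = 0.649), or from -0.19 to -0.01 with 1 array left out. Probe A_66_P118170, from 71169324 to 71169383 on the minus strand (mm9), is shown because it reads the gene 26143 bases from that probe.
Gabrg1 A_66_P118170: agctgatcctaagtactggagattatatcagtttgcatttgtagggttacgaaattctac
Its signal was 5.93, 6.13 and 6.22 on the vehicle arrays and 6.83, 5.79 and 6.09 on the GSK-J4 arrays. GSK-J4 1 was the highest and GSK-J4 2 the lowest of all 6, and the log2 fold change of 0.15 has a 95% interval from -0.53 to 0.82.

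**Figure D3:**
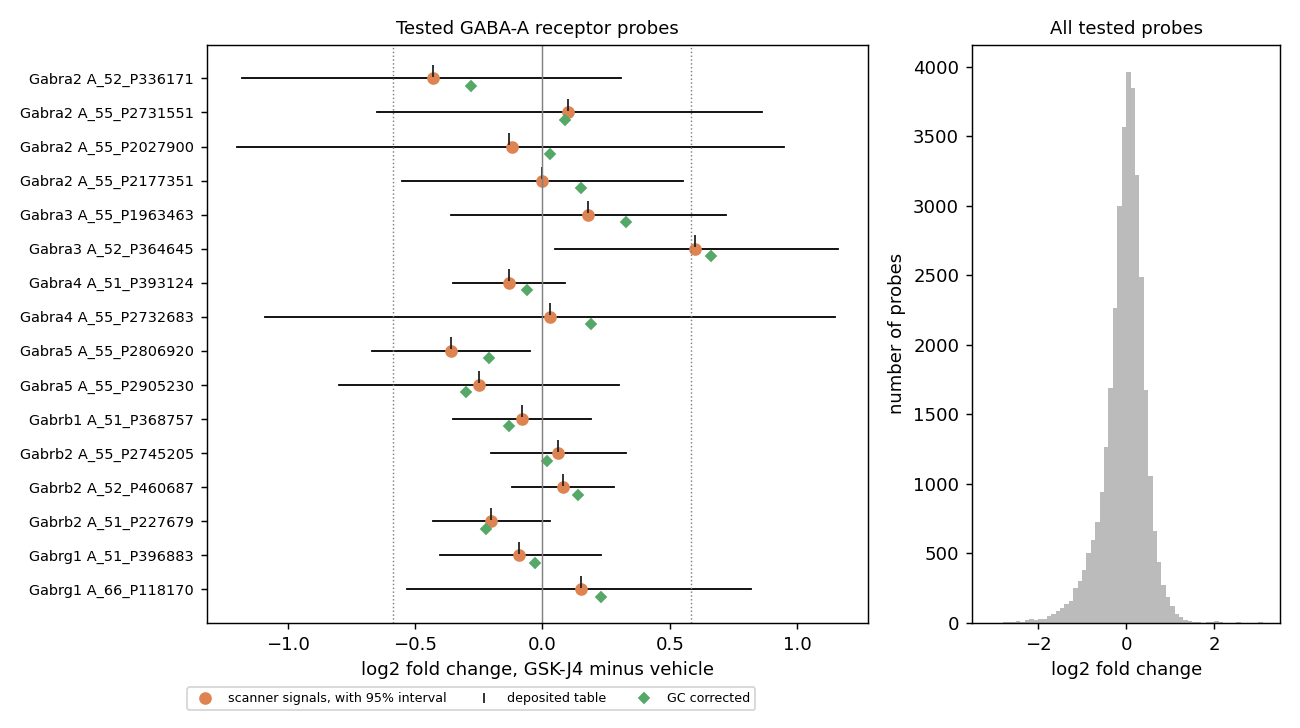
Left, log2 fold change of the 16 tested probes from the scanner signals with its 95% interval (circles and lines), from the deposited table (bars) and after GC correction (diamonds), with dotted lines at 1.5-fold. Right, the number of all 34443 tested probes by log2 fold change, which has a median of 0.02.

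For the subunit probes the deposited log2 table gave nearly the same values as the scanner signals. In it 0 of the 16 probes were called by limma after correction, and the log2 fold change was 0.60 for Gabra3 A_52_P364645, -0.36 for Gabra5 A_55_P2806920, -0.43 for Gabra2 A_52_P336171 and -0.20 for Gabrb2 A_51_P227679. The 4 subunit genes on chromosome 5 lie together in the mouse gene table (GRCm38.p6), in the order Gabrg1, Gabra2, Gabra4 and Gabrb1, with 1 other protein-coding gene among them, between Gabra2 and Gabra4. The tested probes of these neighbours had log2 fold changes from -0.43 to 0.15. Gabra5 lies beside Gabrg3, and Gabrb2 beside Gabra6.

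The arrays of a group differed more for the median subunit probe than for the median tested probe. The median residual SD over the 16 probes was 0.31 on the log2 scale, while it was 0.16 over all tested probes. Vehicle 1 was the lowest vehicle array for 11 of the 16 subunit probes, compared with 39.5% of all tested probes, and GSK-J4 3 the lowest GSK-J4 array for 8 of the 16, compared with 28.1%. Vehicle 1 stood apart in markers of the choroid plexus, the tissue that makes cerebrospinal fluid. The summed linear signal of the 7 tested probes of all 6 choroid plexus genes was 125221 on vehicle 1, 3027 on vehicle 2 and 3303 on vehicle 3, and 12363, 2838 and 5754 on GSK-J4 1, 2 and 3. The brightest of these probes, of Ttr, had log2 signals of 16.15, 10.66 and 10.85 on the vehicle arrays. For brain endothelium, the summed signal of 6 probes was 13105, 11232 and 11120 on the vehicle arrays and 10509, 11549 and 15177 on the GSK-J4 arrays, so it was highest in each group on the array where Gabra2 was lowest. The same held for the striatum, whose 5 probes summed to 9385, 5132 and 4897 on the vehicle arrays and 6753, 5578 and 7341 on the GSK-J4 arrays, with Ppp1r1b the brightest gene, although Adora2a was lowest on vehicle 1 (4.81) and on GSK-J4 3 (5.05) within their groups. The thalamic sum was also highest on these arrays, with 2552, 2423 and 2418 against 2257, 2614 and 2707, but none of its 6 probes was highest on GSK-J4 3. Its brightest probe, of Prkcd, was lowest on vehicle 1 among the vehicle arrays (9.81) and highest on GSK-J4 2 among the GSK-J4 arrays (9.88). The part of these tissues in the spread of the subunits was not tested.

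Markers of other cells and regions were measured with the same arrays. For neurons, in which these receptors chiefly act, 0 of 13 tested probes were called higher and 3 lower. These were Snap25 A_52_P165961 at -0.75 on the log2 scale (limma adjusted p = 0.0139) and the Syt1 probes A_55_P2718027 with -0.68 and A_55_P2718032 with -1.14 (limma adjusted p = 0.0144 and 0.0213). The brightest neuronal probe, of Eno2, gave 0.17 and was not called, and the summed linear signal of the neuronal probes was 199636, 198418 and 196418 on the vehicle arrays and 214192, 198176 and 184994 on the GSK-J4 arrays. These neuronal sums overlapped between the groups, whereas those of 4 other lists did not, the microglial list without its brightest probe. For single probes, the groups did not overlap for 45.6% of all tested, so such a separation is common on these arrays. The astrocyte sum was 41731, 40086 and 38782 on the vehicle arrays and 41948, 44874 and 44657 on the GSK-J4 arrays. The hypothalamic sum was 675, 776 and 835 on the vehicle arrays and 1048, 1013 and 1265 on the GSK-J4 arrays, and the microglial sum was 7476, 7752 and 6840 against 8877, 9315 and 8934, over 6 of the 7 tested microglial probes. The probe left out, Csf1r A_55_P2025078, has no value on GSK-J4 3 in this processing and is the brightest of the 7. Its log2 fold change was 0.27 from the scanner signals of the other arrays but -0.35 in the deposited table. Its deposited mean over the GSK-J4 arrays was 13.13, below the scanner signals of GSK-J4 1 (13.67) and GSK-J4 2 (13.82), so GSK-J4 3 was low there. The separation of the microglial sums is thus shown only without this probe, and was not tested with it. The cortical sum was lower on the GSK-J4 arrays, at 13446, 12187 and 13172 against 14906, 15014 and 14998 on the vehicle arrays. On every array the hypothalamic sum was far below the cortical sum. Signals of different probes are not on 1 scale, and how well the tissue matches its label was not tested. Of the 10 hypothalamic markers, 5 had a tested probe and 1, Pomc, was called, at 0.86 (limma adjusted p = 0.0221), while no probe of Pmch, Avp, Trh, Sim1 or Nkx2-1 passed the background test on each array of a group. The brightest hypothalamic probe, of Crh, gave 0.41. Each of the 4 cortical markers had a tested probe. Tbr1 was called higher on A_55_P2713510 with 0.97 and Neurod6 lower with -0.47, while the brightest cortical probe, of Tbr1, gave -0.06. Of the thalamic markers Tnnt1 was called higher on its 2 tested probes with 0.66 (A_55_P2088385) and 0.70, while the brightest, Prkcd, gave -0.41. Among astrocyte probes 1 of 10 was called, of Slc1a3 with -0.76, whereas the brightest, also of Slc1a3, gave 0.17. No probe was called for oligodendrocytes (12 tested), microglia (7, brightest Cx3cr1 among probes with a value on all 6 arrays), brain endothelium (6, Flt1), choroid plexus (7, Ttr) or striatum (5, Ppp1r1b), and none of 7 anterior pituitary probes could be tested. In the striatal list the Drd1 probes were higher, at 0.72 and 0.84, past the thresholds of the methods (limma adjusted p = 0.0626 and 0.0613). Adora2a gave 0.4, and on the Drd1 and Adora2a probes every GSK-J4 array was above every vehicle array. Groups without overlap, in either direction, were seen for 45.6% of all tested probes. The Ppp1r1b probes overlapped between the groups, at 0.01 and 0.13. With the trend on GC content removed, Tbr1 A_55_P2713510, Neurod6 and Tnnt1 A_55_P2088385 were no longer called, with log2 fold changes of 0.95, -0.31 and 0.45 (limma adjusted p = 0.0588, 0.0857 and 0.0762). Without any 1 of the vehicle arrays, 0 of the 9 called marker probes passed the correction, although all 9 kept their sign and an unadjusted p of at most 0.05. Of the 77 tested probes of the marker lists together, 4 were called higher and 5 lower, beside 8.38% and 8.40% of all tested probes. The marker counts were 16 and 5 with 75th percentile scaling and 8 and 5 with normexp. The part of these differences in the subunit values was not tested.

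Among the other subunits of the receptor a single probe was called. Of 12 further subunit genes, 7 had a tested probe, and the median log2 fold change of their 13 tested probes was -0.06. Of these probes 1 was called higher (7.69%) and 0 lower, beside 8.38% and 8.40% of all tested probes. Gabrd, the delta subunit of extrasynaptic receptors, had signals of 11.07, 11.44 and 9.50 on the vehicle arrays and 11.80, 11.43 and 11.93 on the GSK-J4 arrays. Vehicle 3 alone was low, and the log2 fold change of 1.05 has a 95% interval from -0.21 to 2.31 (limma adjusted p = 0.195). The called probe was Gabrg3 A_55_P2053251, with 0.58 (limma adjusted p = 0.0305), while A_55_P2228097 gave 0.15 and A_55_P2714139 gave -0.46. The remaining tested probe of Gabrg3 was well above background on 1 of the 3 GSK-J4 arrays.

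Of 16 tested probes of 8 genes that make, move and clear GABA, 3 were called higher and 2 lower, beside 8.38% and 8.40% of all tested probes. Gad1, which encodes a GABA-synthesising enzyme, had signals of 5.97, 5.80 and 5.89 on the vehicle arrays and 6.90, 6.65 and 6.82 on the GSK-J4 arrays on probe A_55_P2879270. These groups are far apart, by 0.90 on the log2 scale (limma adjusted p = 0.0144, standard error 0.10), but the Gad1 probe A_52_P144310 gave -0.25 (limma adjusted p = 0.0724) and A_55_P2731481 gave -0.16. Gad2, the second such enzyme, was called lower on A_55_P2734537 with -0.71 (limma adjusted p = 0.0267), while A_51_P495462 gave -0.05. Abat, which breaks GABA down, gave 0.84 on A_66_P104630 (limma adjusted p = 0.0151) while its other probes gave -0.09 and -0.19. In each of these 3 genes a called probe thus stood beside probes that were not called.

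Among 16 genes of receptor anchoring and trafficking, 3 of 34 tested probes were called higher and 2 lower, with a median log2 fold change of 0.03. Nlgn2, the neuroligin of inhibitory synapses, gave 0.69 on A_66_P116471 and 0.22 on A_55_P1960989, which was not called. Hap1, which takes part in receptor recycling, gave 0.57 on A_55_P2058726 and -0.16 on A_55_P2760151, which was not called. Trak2, a motor adaptor, gave -0.37, and Nsf, a fusion ATPase, gave -0.84 on A_55_P2126870 and 0.47 on A_55_P2600697. With the trend on GC content removed, Trak2 gave -0.21 and Hap1 0.38 and neither was called (limma adjusted p = 0.104 and 0.15). For the GABA-B receptor and its auxiliary proteins, 1 of 10 tested probes was called, Kctd12 A_51_P371912 with -0.61 (limma adjusted p = 0.0268), while Kctd12 A_66_P119376 gave -0.06. Of the 4 tested glycine receptor probes 0 were called, with values from -0.27 to 0.20. The chloride transporters that set the direction of the GABA current were not called either, and Slc12a5 gave -0.24. For Slc12a2 the log2 fold change of -2.45 rests on GSK-J4 3, which read 5.16 where the other 5 arrays read between 11.66 and 12.30. Over these lists, 7 of 79 tested probes were called higher and 5 lower, in 10 genes, and 9 of these genes have more than 1 tested probe. These counts are close to the shares over all tested probes, 8.38% higher and 8.40% lower. Without any 1 of the vehicle arrays 0 of the 12 called probes passed the correction, although all 12 kept their sign and an unadjusted p of at most 0.05. With 75th percentile scaling 12 probes of these lists were called higher and 4 lower.

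**Figure D4:**
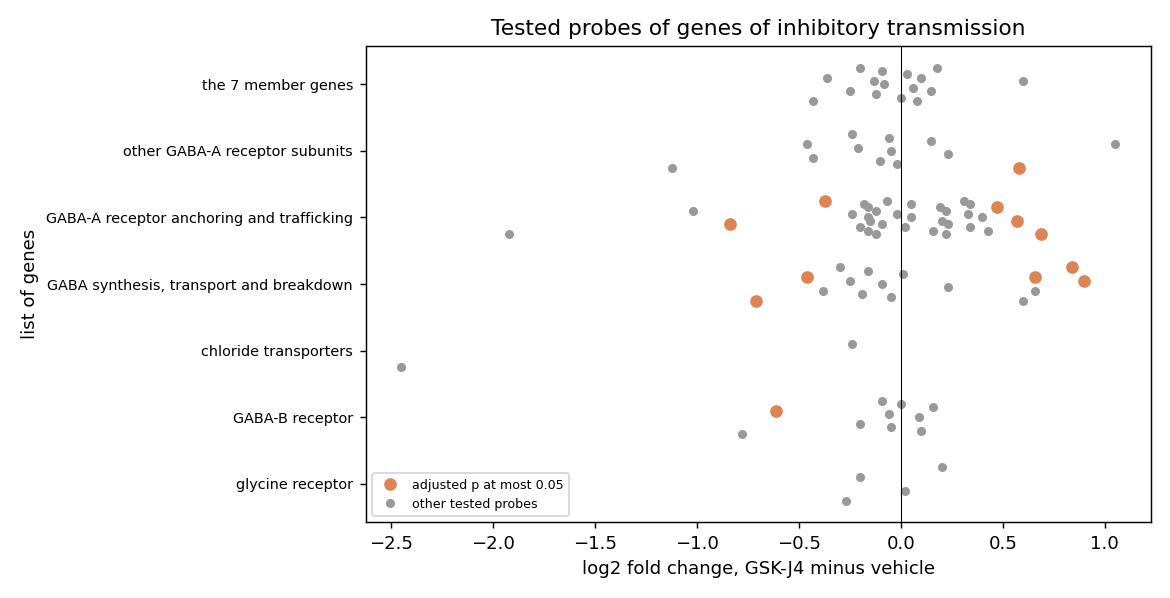
Log2 fold change, GSK-J4 minus vehicle, of each tested probe of the 7 subunit genes and of 6 further lists, spread vertically for legibility. Probes called by limma after correction are orange, 0 among the 16 subunit probes and 12 among the 79 others.

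The base composition of a probe moved with its difference across the array, and values after a GC correction are given as an alternative. The part of base composition in the subunit results was not tested. Among tested probes the median log2 fold change was -0.12 at a GC content around 37.5% and 0.24 around 57.5%. The subunit probes are poor in GC, with a median of 38.3% beside 43.3% for all tested probes. With the trend removed within each array, the median of the 16 probes was 0.03, that of all tested probes was 0.02, and 0 subunit probes were called. In the other lists, the 7 probes called higher had a median GC content of 51.7% and the 5 called lower 36.7%.

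**Figure D5:**
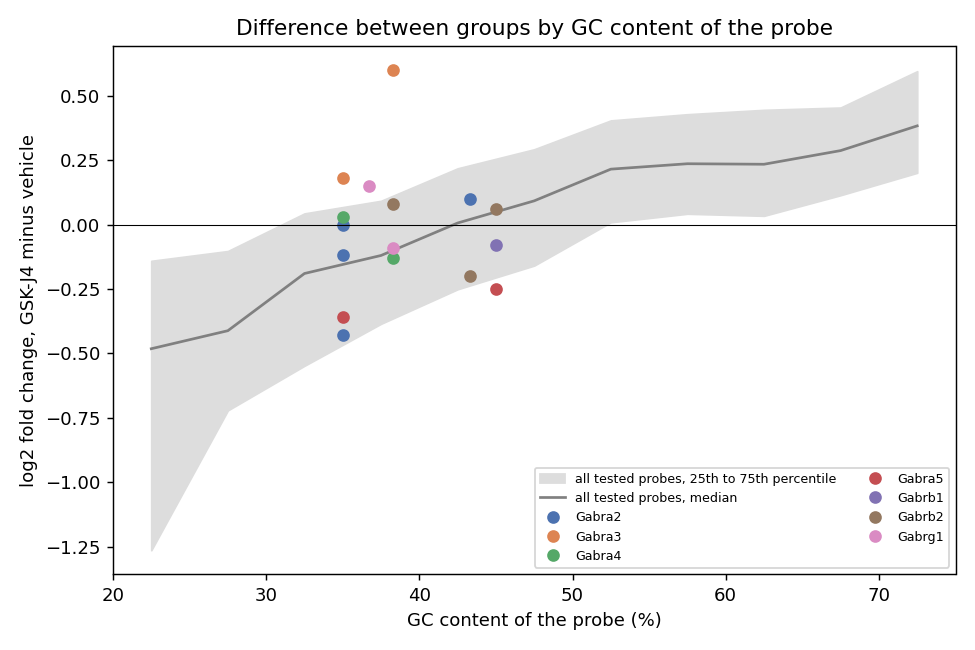
Log2 fold change (vertical axis) against the GC content of the probe (horizontal axis, percent) for the 16 tested subunit probes, over the median and the 25th to 75th percentile of all tested probes in bins of 5 percentage points. The subunit probes have between 35% and 45% GC, and Gabra3 A_52_P364645, at 0.60, lies farthest from the median line.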

How the data were processed

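The authors scanned the arrays and extracted a background-corrected intensity for each 60-base spot with Feature Extraction 10.7.1.1 (per the file headers), and they deposited these intensities with flags and, separately, a table of log2 values that the methods describe as quantile normalized. Each column of that table correlated at 0.9992 or above with its own array and had a median of 5.75. The number of columns without a sample was 0. Coordinates (mm9) were taken from the files.

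Intensities were read in R 4.3.3 with the data.table package (version 1.17.8) and limma 3.58.1. Control spots and between 146 and 229 outlier spots an array were left out, and 0 of the others were saturated. Log2 intensities were averaged over the spots of a probe and quantile normalized. Probes well above background throughout 1 group or both (all 3 arrays) were compared across the array with lmFit and eBayes, two-sided and without covariates, and p-values of the 34443 probes were adjusted by the Benjamini-Hochberg method. The unit is the probe. Levels of different probes were not compared as results, but in the marker lists they were summed and used to choose the brightest gene. The hypothalamic and cortical sums were also set side by side. For single probes the 20 orders of 3 arrays against 3 were enumerated. The procedure was tested on simulated data.

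Named were every probe of the 7 members, Gabrd, up to 6 genes with a called probe in each pathway list, and in each marker list the brightest gene and the called genes. Some genes that this rule names are not reported here. Probes most like the strongest called member were to be named, but no member was called. Gad1 A_52_P144310 and other uncalled probes of called genes, Slc12a2, Slc12a5 and the summed marker values were added after their values were seen. Members and lists were chosen with earlier results of these data known. Alternatives were other normalizations, background corrections, filters and tests, the deposited log2 values, a GC correction (lowess, span 0.3), a replicate block, 1 probe a gene name, and leaving out each array. Counts of calls in the pathway and marker lists under these alternatives were added after the data were seen.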

Additional observations from a re-analysis of the deposited data

How the results depend on the processing

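Over 16 alternatives, 226 log2 fold changes of the tested probes kept their sign and their side of the corrected threshold, and 20 had the opposite sign, the largest with an absolute size of 0.43. In 15 of the alternatives 0 subunit probes were called. Some of these could call few probes of any gene, so their 0 says little. Over all tested probes, 0 were called with the replicate block and 34 higher and 25 lower with the methods' t-test. Without vehicle 1 the counts were 2 and 9, without vehicle 2 they were 5 and 23, and without vehicle 3 they were 2 and 17. With normexp 1 was called lower, Gabrb2 A_51_P227679 at -0.25 (limma adjusted p = 0.0479, within a range from 0.0479 to 0.81).

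The count past 1.5-fold and higher was 1, and 0 with 75th percentile scaling, normexp, the methods' t-test, and 1 probe a gene name, which leaves out the Gabra3 probe. With 1 array left out it ranged from 0 to 1, as did the count of lower probes, which was 1 without vehicle 1.

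With 75th percentile scaling the sign changed for Gabrb2 A_51_P227679 (0.04) and A_55_P2745205 (-0.07), Gabrb1 (0.09), Gabra4 A_51_P393124 (0.06) and Gabra2 A_55_P2177351 (0.13). With the GC correction, alone or with the replicate block, Gabra2 A_55_P2027900 was 0.03 and A_55_P2177351 0.15. With 1 array left out, the log2 fold change ranged from -0.17 to 0.33 for Gabra2 A_55_P2731551, -0.37 to 0.34 for A_55_P2027900, -0.18 to 0.18 for A_55_P2177351, -0.43 to 0.34 for Gabra4 A_55_P2732683, -0.04 to 0.13 for Gabrb2 A_55_P2745205 and -0.15 to 0.37 for Gabrg1 A_66_P118170. The cause was not tested.

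With the replicate number as a block, the count past 1.5-fold and higher was 0, also with the GC correction, and 0 of all tested probes were called. Deviations of arrays with the same number correlated at 0.01, 0.03 and 0.08, and not every array correlated best with its own number, so the arrays share only a number. The 5 probes not well above background give no difference at the signal of these arrays.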
